A study of Rattus norvegicus with 15 samples.

Results

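The genes of iron transport and storage were read across the whole set of rat retinas. They are *Tf*, *Tfrc*, *Hfe*, *Slc11a2*, *Fth1*, *Ftl1*, *Slc40a1*, *Cp* and *Heph*, picked by their symbols in the deposited tables, and they make up 9 of the 20375 genes listed. *Slc40a1* is carried by 2 gene identifiers, so the 9 symbols fill 10 entries. The 9 symbols all passed the filter on low values through at least one identifier. The second *Slc40a1* identifier, ENSRNOG00000049995, lay between -1.49 and -1.42 in the 15 libraries and was not tested.

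The data came from mRNA sequencing of the retinas of wild type Sprague-Dawley rats, 3 libraries in each of 5 groups. The labels give the age as postnatal week 12 and the collection as day 31 after transplantation, while the series text speaks of 31-day-old rats. The no-treatment (NT) group was healthy and received neither cells nor sodium iodate. The sham group received NaIO3, an oxidant that injures the retinal pigment epithelium and then the photoreceptors, at a dose of 40 mg/kg and had vehicle injected into the vitreous beforehand. The MSC group received the same NaIO3 dose after an injection of human mesenchymal stem cells from Wharton's jelly. In the MSCEPO group those cells had been transduced with a lentivirus that carries human *EPO*, the gene of erythropoietin. The last group received NaIO3 and cells labelled DPSC, a name the labels do not spell out. Rats with xenografts were also given dexamethasone and then cyclosporin, so the effects of the cells and of immunosuppression cannot be told apart. NaIO3 and an intravitreal injection are common to the 12 libraries outside NT and cannot be told apart either.

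Iron enters most cells as transferrin (*Tf*) bound to the transferrin receptor (*Tfrc*), is carried out of the endosome by the transporter DMT1 (*Slc11a2*) and is stored in ferritin, which is built from heavy (*Fth1*) and light (*Ftl1*) chains. It leaves through ferroportin (*Slc40a1*), helped by the copper ferroxidases ceruloplasmin (*Cp*) and hephaestin (*Heph*), which oxidize it for loading onto transferrin. When cells are rich in iron, iron regulatory proteins let go of the *Tfrc* mRNA, which is then degraded, and ferritin is translated. In the retina, ceruloplasmin and hephaestin are known for limiting iron in the neural retina and the pigment epithelium, and free iron is toxic to photoreceptors.

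Values are on the regularized log (rlog) scale of the authors, a log2 scale corrected for library size on which each library is shrunken toward the mean of its gene. They are not divided by transcript length, so levels are compared between groups and not between genes. A gene was called where its adjusted p, from limma with Benjamini-Hochberg adjustment over 15424 tested genes, was under 0.05. Nothing in the labels says whether libraries are separate animals. The paper speaks of biological replicates, but it does not describe the DPSC group. The p-values measure the spread between these libraries.

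Some libraries stood nearer to another group than to their own. MSCEPO replicate 3 was closest to DPSC replicate 3 (r = 0.981 over the tested genes, against at most 0.957 with its own group). DPSC replicate 2 was closest to MSCEPO replicate 1 (r = 0.995, against at most 0.974), and DPSC replicates 1 and 3 were closest to sham libraries. The rod transducin gene *Gnat1* marked every library as retina, between 14.71 and 18.04. The lens gene *Cryaa* was highest in DPSC replicates 1 and 3 (18.21 and 17.50) and MSCEPO replicate 3 (16.29). It lay at 10.73 to 15.18 in the other libraries. Results that rest on MSCEPO replicate 3 and DPSC replicate 2 are given with and without them. Whether the labels of this pair were exchanged was not tested. The labels name no batch.

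*Tfrc* and *Cp* were the members that passed the test in any comparison, in opposite directions. Their promoters are shown because the results turn on these 2 genes, with the sequences taken from a RefSeq promoter table in build GRCr8. Entries for 6 of the 9 members were used here, and *Fth1*, *Ftl1* and *Hfe* were not searched. Each stretch holds the 250 bases before the start of transcription, 5′ to 3′ on the strand of the gene. The first, of *Tfrc*, lies at chr11:81690319-81690568 on the minus strand and the other, of *Cp*, at chr2:104368420-104368669 on the plus strand. Capitals mark ACGTG, the core of the hypoxia response element.
Tfrc: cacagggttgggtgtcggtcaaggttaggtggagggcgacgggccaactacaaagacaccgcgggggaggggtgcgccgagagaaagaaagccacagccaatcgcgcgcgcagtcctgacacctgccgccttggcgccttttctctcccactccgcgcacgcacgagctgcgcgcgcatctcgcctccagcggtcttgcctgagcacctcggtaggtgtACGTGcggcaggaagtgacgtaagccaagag
Cp: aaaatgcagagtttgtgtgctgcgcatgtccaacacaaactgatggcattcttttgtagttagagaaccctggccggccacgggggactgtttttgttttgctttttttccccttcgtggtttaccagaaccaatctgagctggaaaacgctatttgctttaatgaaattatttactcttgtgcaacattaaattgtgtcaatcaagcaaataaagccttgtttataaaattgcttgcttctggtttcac
The *Tfrc* stretch is 64.8% G and C and the *Cp* stretch 39.6%. Searched on both strands, ACGTG stood 31 to 27 bases before the *Tfrc* start and is present in 16.6% of the 33469 promoters of that length. The other motifs searched in the same way were TGACNNNGC, the core of the antioxidant response element, held by 10.1% of promoters, and TTCNNNGAA, the STAT element, held by 7.67%. Neither matched in any of the 6 members, and ACGTG matched in *Tfrc* alone. CAGTGN, the loop of the iron-responsive element, was searched on the sense strand in the 50 bases after the start. There 7.26% of the entries held it and none of the 6 members searched did. That window leaves out the rest of the mRNA, so whether a member carries the element elsewhere cannot be told from it. These matches are letters in a window and say nothing about binding.

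*Tfrc* (ENSRNOG00000001766), the receptor for iron-loaded transferrin, was lower in every group that received NaIO3. The rlog values were 11.78, 11.90 and 12.01 in NT and 10.92, 10.75 and 10.80 in sham. They were 10.75, 10.65 and 10.60 in MSC, 10.56, 10.40 and 10.55 in MSCEPO, and 11.00, 10.46 and 10.96 in DPSC. All 12 libraries with NaIO3 lay below all 3 NT libraries, and the spread within groups was small next to that gap.

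Against NT, *Tfrc* fell by 1.08 in sham (SE 0.13, 95% interval -1.35 to -0.80, limma adjusted p = 0.00295), 2.11-fold on the rlog scale. It ranked 7 by p-value among all tested genes in that comparison. The fall was 2.35-fold in MSC (log2 difference -1.23, limma adjusted p = 0.000278), 2.63-fold in MSCEPO (-1.40, 8.35e-05) and 2.13-fold in DPSC (-1.09, 0.00143). These 4 comparisons share the NT libraries. All 4 calls held in every alternative run, with a highest adjusted p of 0.0283, in DPSC. The rod marker list, 10 tested genes including *Gnat1*, was below NT in the same groups. Its mean went from -0.77 in sham to -1.50 in MSCEPO, while *Tfrc* went from -1.08 to -1.40. Relative to the NT mean the list lay at -0.84 to -0.65 in sham, -1.47 to -1.23 in MSC, -1.72 to -1.24 in MSCEPO and -1.51 to -0.71 in DPSC. Its part in the fall of *Tfrc* was not tested, and in whole retina fewer cells of a type and less RNA per cell cannot be told apart.

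Among the groups with NaIO3, *Tfrc* showed no call. MSCEPO lay 0.32 below sham with no overlap between libraries (95% interval -0.60 to -0.04), but the limma adjusted p was 0.559. The difference from sham was -0.15 in MSC (95% interval -0.43 to 0.12, adjusted p = 0.67) and -0.02 in DPSC (95% interval -0.29 to 0.26, adjusted p = 1). From the highest group mean to the lowest the order was NT 11.90 ± 0.11, sham 10.82 ± 0.088, DPSC 10.81 ± 0.30, MSC 10.67 ± 0.079 and MSCEPO 10.50 ± 0.090 (mean ± SD, n = 3). NT and sham were the only neighbours in that order whose difference passed the test. Without MSCEPO replicate 3 and DPSC replicate 2, *Tfrc* was 0.50 higher in DPSC than in MSCEPO (limma adjusted p = 0.0253), a choice made after seeing the data. DPSC replicate 2 held the lowest *Tfrc* of its group (10.46), so that choice alone widens the difference.

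*Cp* (ENSRNOG00000011913), the ferroxidase ceruloplasmin, was called higher than NT in the 3 groups with cells. In rlog values it stood at 11.81, 11.95 and 11.56 in NT and at 12.90, 13.31 and 13.27 in sham. The MSC libraries held 14.40, 14.42 and 14.14, the MSCEPO libraries 14.61, 14.42 and 13.02, and the DPSC libraries 13.07, 14.32 and 13.03. Every library with NaIO3 was above every NT library, and all 3 MSC libraries were above all sham libraries. In the MSCEPO and DPSC groups the libraries split, with some at the level of sham and others at that of MSC.

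**Figure D1:**
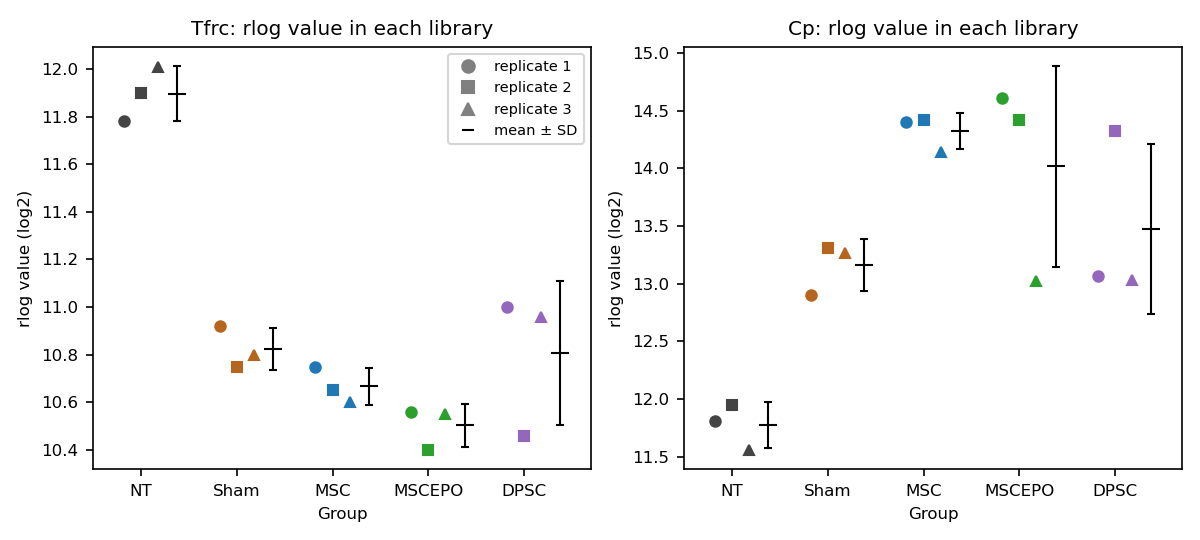
Rlog value (log2) of *Tfrc* (left) and *Cp* (right) in each of the 15 libraries by group, with symbols for the replicate number and a bar for the mean ± SD of 3 libraries. *Tfrc* lies between 11.78 and 12.01 in NT and between 10.40 and 11.00 elsewhere, and *Cp* lies between 11.56 and 11.95 in NT and between 12.90 and 14.61 elsewhere.

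The rise of *Cp* over NT was 5.85-fold in MSC (log2 difference 2.55, SE 0.39, 95% interval 1.70 to 3.40, limma adjusted p = 0.00168). It was 4.74-fold in MSCEPO (2.25, limma adjusted p = 0.00336) and 3.25-fold in DPSC (1.70, limma adjusted p = 0.0376). The DPSC call was lost in 12 of 25 alternatives, with adjusted p up to 0.15. It was lost without any of the 3 NT libraries (0.0961 to 0.15), any of the 3 sham libraries (0.054 to 0.0573), MSC replicate 2 (0.0586), DPSC replicate 1 (0.0549) or DPSC replicate 2 (difference 1.28, 0.146), and also in a fit of the groups compared, without a filter and after quantile normalization. In sham the difference from NT was 1.39 (SE 0.39, 95% interval 0.54 to 2.24, 2.62-fold), which was not called (limma adjusted p = 0.135) although the libraries did not overlap. That estimate shares its spread with the split MSCEPO and DPSC groups. In a fit of the NT and sham libraries alone the adjusted p for *Cp* was 0.00354. That fit called 8.64% of all genes, against 0.888% in the fit of all 15 libraries. Without MSCEPO replicate 3 the adjusted p for *Cp* was 0.0259. Without both MSCEPO replicate 3 and DPSC replicate 2 it was 0.000468, where 5.12% of all genes were called.

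Against sham, *Cp* was not called in any group with cells. It was 1.16 higher in MSC (95% interval 0.31 to 2.01, limma adjusted p = 0.203), 0.86 higher in MSCEPO (95% interval 0.01 to 1.70, adjusted p = 0.60) and 0.31 higher in DPSC (95% interval -0.54 to 1.16, adjusted p = 1). The mean of the 3 groups with cells was 0.78 above sham (95% interval 0.08 to 1.47, adjusted p = 0.455). From the lowest mean to the highest the order was NT 11.77 ± 0.20, sham 13.16 ± 0.23, DPSC 13.47 ± 0.73, MSCEPO 14.02 ± 0.87 and MSC 14.32 ± 0.16 (mean ± SD, n = 3), and no neighbours in it differed past the test.

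These results depended on MSCEPO replicate 3 and DPSC replicate 2, which held the lowest *Cp* of MSCEPO (13.02) and the highest of DPSC (14.32). Leaving them out sets these groups apart and narrows the pooled spread by that choice alone, so the p-values of this fit are a description. With both left out, *Cp* was higher than in sham in MSC (1.16, limma adjusted p = 0.00188) and in MSCEPO (1.36, 0.00243), while DPSC lay at -0.11 from sham (0.999). DPSC was then lower than MSC by 1.27 (limma adjusted p = 0.00262) and lower than MSCEPO by 1.47 (0.00213). MSC and MSCEPO differed by -0.20 (0.999). That fit, chosen after seeing the data, called 3.37% of all genes between MSC and sham, 2.19% between MSCEPO and sham, 3.86% between DPSC and MSC, 2.77% between DPSC and MSCEPO and 1.24% between the mean of the groups with cells and sham.

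The split of *Cp* ran beside that of glial and immune genes, and beside the main axis of the most variable genes. MSCEPO replicate 3, DPSC replicate 1 and DPSC replicate 3 had *Cp* between 13.02 and 13.07, inside the sham range of 12.90 to 13.31, while the other 6 libraries with cells had 14.14 to 14.61. A list of 10 reactive gliosis genes, among them *Gfap*, lay at 1.36 to 1.64 above NT in those 3 libraries, at 1.48 to 1.65 in sham and at 2.11 to 2.61 in the other 6. *Gfap* by itself did not split so, with 13.43 in MSCEPO replicate 3, 13.33 in MSC replicate 1 and 12.80 to 13.53 in sham. A list of 16 macrophage and microglia genes lay at 0.88 to 1.42 in the 3 libraries, at 0.80 to 1.39 in sham and at 1.72 to 3.36 in the other 6. The lens, cornea and ciliary body list was highest in the same 3 libraries, at 2.22 to 3.33. The first principal component of the 500 most variable tested genes held 66.7% of their variance and split the libraries in the same way. On it the 3 libraries lay at -19.1 to -15.9, sham at -17.6 to -14.3 and the other 6 at 12.5 to 57.6. The part of these cells and tissues in the level of *Cp* was not tested. *Alb*, the liver's main plasma protein, was below the filter at -0.35 to -0.31 in every library.

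**Figure D2:**
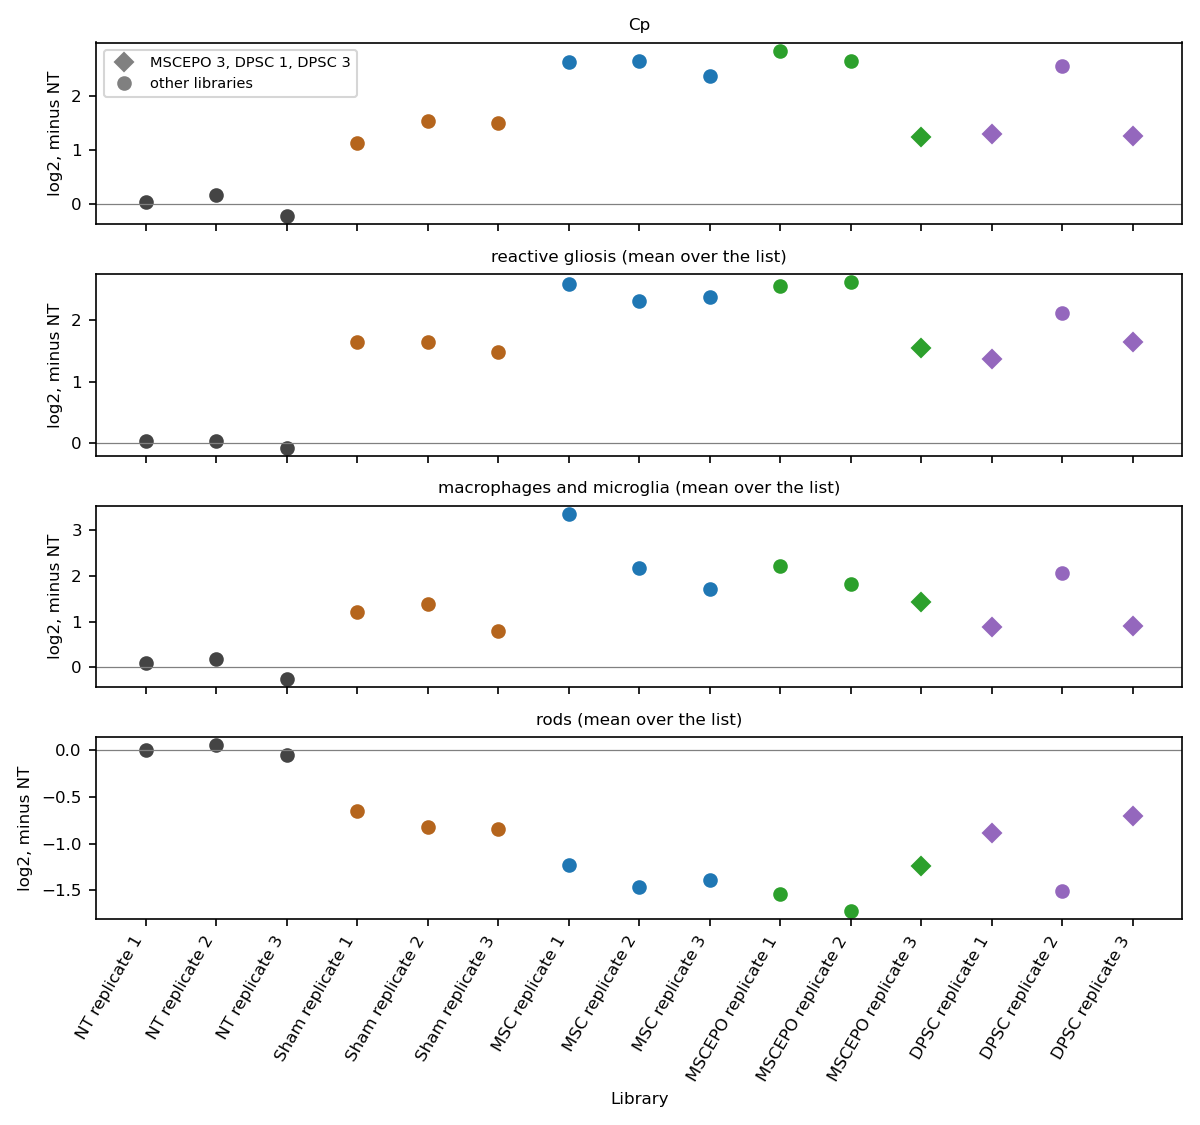
*Cp*, and the mean of the reactive gliosis, macrophage and microglia, and rod lists, in each library as a log2 difference from the NT mean (one point a library, colored by group). Diamonds mark MSCEPO replicate 3, DPSC replicate 1 and DPSC replicate 3, whose gliosis level of 1.36 to 1.64 is at the height of the sham libraries (1.48 to 1.65).

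By their rlog values over the 15 libraries, the genes most like *Cp* were *Nes* (r = 0.985), which encodes the intermediate filament nestin, *Serping1* (r = 0.985), the inhibitor of complement C1, and *Prelp* (r = 0.983), a matrix proteoglycan. Within groups, after each group's mean was subtracted, these values were 0.932, 0.925 and 0.976. The genes most like *Tfrc* were *Zbtb5* (r = 0.980), *Cited2* (r = 0.978) and *Tob1* (r = 0.976), with 0.830, 0.793 and 0.753 within groups. They were picked as the highest of all tested genes, and the libraries share their groups and NaIO3, so these values are a description without a test.

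The remaining 7 members were not called in any comparison. In sham against NT, 0 of 9 members were called higher and 1 (*Tfrc*) lower, where 0.888% of all tested genes were called, 0.558% higher and 0.331% lower. In MSC 1 member (*Cp*) was called higher and 1 (*Tfrc*) lower, against 17.4% of all genes called, 11% higher and 6.37% lower. The same 2 members were called in MSCEPO, against 11.6% of all genes (5.83% higher and 5.81% lower), and in DPSC, against 2.85% (1.43% higher and 1.41% lower). Members whose libraries did not overlap with NT numbered 5 in sham (31.9% of all genes), 2 in MSC (44.1%), 4 in MSCEPO (31.4%) and 7 in DPSC (31.7%). The median difference of the members from NT was 0.16 in sham, 0.25 in MSC, 0.19 in MSCEPO and 0.20 in DPSC, and that of all genes was 0.00 in each.

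Against sham, limma called 0 of 9 members in MSC (0% of all genes), in MSCEPO (0.0259%), in DPSC (0.0195%) and in the mean of the 3 groups (0.0195%). At an unadjusted p under 0.05 there were 1 member in MSC (13.3% of all genes), 2 in MSCEPO (8.31%), 0 in DPSC (2.37%) and 1 in the mean of the 3 groups (9.82%). Without overlap with sham were 1 member in MSC (24.5% of all genes), 2 in MSCEPO (14.3%), 1 in DPSC (9.82%) and 0 in the mean of the 3 groups (2.77%). Between the groups with cells, 0 members were called in any pair, as were 0% of all genes. At an unadjusted p under 0.05 there were 0 members between MSC and MSCEPO (3.79% of all genes), 1 between DPSC and MSC (7.02%) and 1 between DPSC and MSCEPO (2.48%). The members without overlap between groups with cells were *Tfrc*, higher in MSC than in MSCEPO (4.09% of all genes), and *Fth1*, lower in DPSC than in MSCEPO (4.34%), and there were 0 between DPSC and MSC (6.7%).

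**Figure D3:**
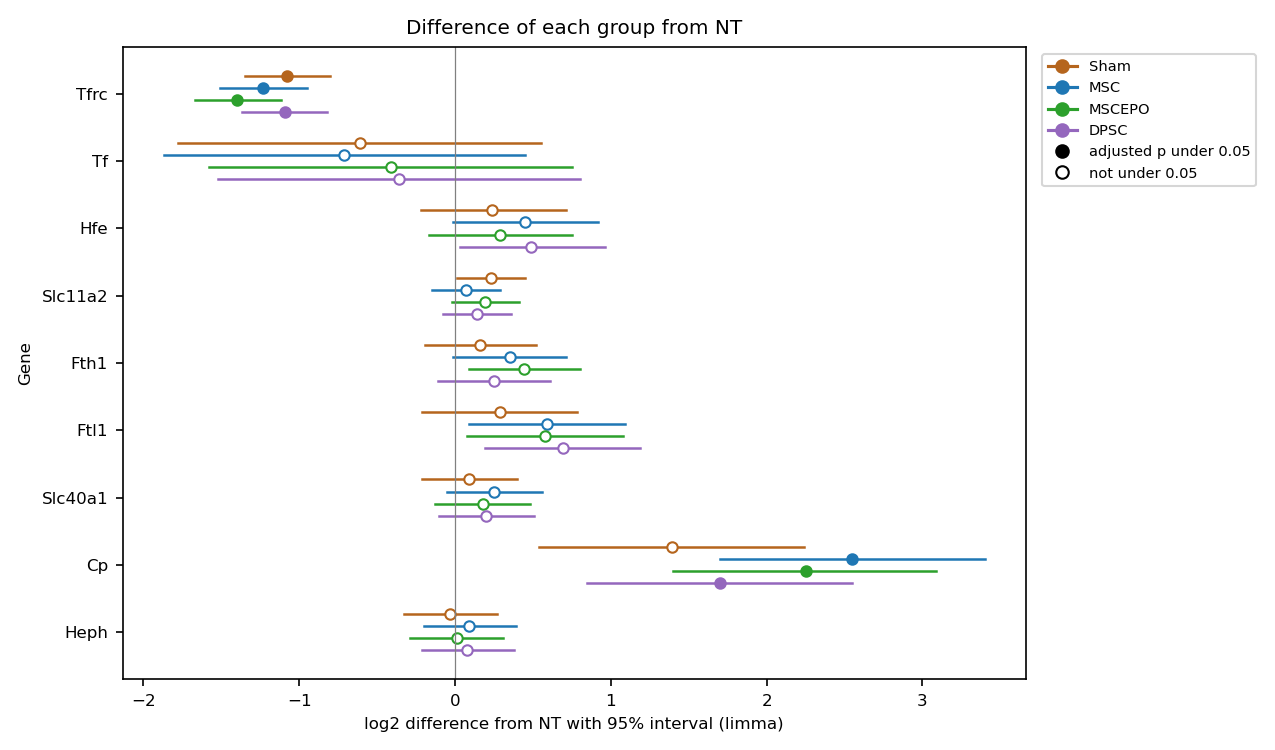
log2 difference of each group from NT for the 9 members, with the 95% interval from limma; filled points have an adjusted p under 0.05. *Tfrc* is left of 0 in all 4 groups, from -1.40 to -1.08, *Cp* is right of 0, from 1.39 to 2.55, and the intervals of *Slc40a1* and *Heph* include 0 in every group.

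The ferritin chains, which form the shell that stores iron, gave higher means in every group with NaIO3 without a call. *Fth1* (ENSRNOG00000022619), the heavy chain with ferroxidase activity, had rlog values of 13.44, 13.33 and 13.09 in NT, 13.27, 13.76 and 13.33 in sham, 13.95, 13.60 and 13.36 in MSC, 13.69, 13.61 and 13.89 in MSCEPO and 13.58, 13.55 and 13.49 in DPSC. The MSCEPO and DPSC libraries were above all NT libraries, and sham and MSC overlapped with NT. Its largest difference from NT was 0.44 in MSCEPO (95% interval 0.09 to 0.80, limma adjusted p = 0.106). After quantile normalization it was called in MSC (0.44, adjusted p = 0.0417) and MSCEPO (0.61, 0.0149).

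*Ftl1* (ENSRNOG00000020843), the light chain, had 10.07, 9.99 and 9.57 in NT, 10.22, 10.14 and 10.13 in sham, 11.00, 10.38 and 10.03 in MSC, 10.34, 10.25 and 10.78 in MSCEPO and 10.85, 10.30 and 10.54 in DPSC. MSC replicate 3 was the single library with NaIO3 that fell inside the NT range. The differences from NT were 0.29 in sham, 0.59 in MSC, 0.58 in MSCEPO and 0.69 in DPSC (95% interval 0.19 to 1.19), with limma adjusted p of 0.724, 0.0974, 0.124 and 0.137. Array weights, which count variable libraries less, called *Ftl1* in DPSC (0.75, adjusted p = 0.00329), in a fit that called 23.8% of all genes there. They also called it in MSC (0.38, 0.0171), where 49.4% of all genes were called. In MSC *Ftl1* was also called without MSC replicate 3 (0.81, 0.028). Without MSC replicate 1 the difference in MSC was 0.33 (adjusted p = 0.346). RefSeq lists near-identical copies and pseudogenes of both ferritin chains in the rat, so the share of reads assigned to these identifiers is uncertain.

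*Tf* (ENSRNOG00000030625), the carrier of iron in plasma and in the eye, was the most variable member within groups. Its rlog values were 14.46, 14.94 and 14.48 in NT, 13.78, 14.17 and 14.09 in sham, 15.31, 14.05 and 12.39 in MSC, 14.63, 14.53 and 13.47 in MSCEPO and 14.37, 14.33 and 14.10 in DPSC. The MSC group held the highest and the lowest library of the set. The pooled SD within groups was 0.73, larger than in 97.4% of tested genes, whose median was 0.19. No difference from NT was called, with values of -0.61 in sham, -0.71 in MSC, -0.41 in MSCEPO and -0.36 in DPSC (limma adjusted p = 0.754, 0.413, 0.663 and 0.783), though sham and DPSC lay wholly below NT. The difference in MSC was -1.40 without MSC replicate 1, -0.55 without NT replicate 2 and 0.05 without MSC replicate 3. In MSCEPO it ran from -0.62 without MSCEPO replicate 1 to -0.05 without MSCEPO replicate 3, and in DPSC it was -0.20 without NT replicate 2.

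Genes of the retinal pigment epithelium varied in the same libraries as *Tf*. Their list of 12 lay at -0.11 from the NT mean in MSC replicate 1, at -1.25 in replicate 2 and at -2.17 in replicate 3, and at -1.76 in MSCEPO replicate 3. *Ttr*, which encodes the carrier transthyretin and is strongly expressed there, had 13.84, 12.08 and 9.47 in the MSC libraries. The ranges of the list were -0.50 to 0.52 in NT, -0.89 to -0.28 in sham, -0.70 to -0.39 in the other MSCEPO libraries and -0.98 to 0.06 in DPSC. Its part in the level of *Tf* was not tested.

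*Slc40a1* (ENSRNOG00000003872), the sole known exporter of iron, ranged from 4.69 to 5.39 over the libraries, with the highest value in MSC replicate 1. Its differences from NT were 0.09 in sham, 0.25 in MSC, 0.18 in MSCEPO and 0.20 in DPSC, with limma adjusted p of 0.89, 0.256, 0.447 and 0.518. These signs turned under quantile normalization in sham (-0.03), MSC (-0.14) and MSCEPO (-0.07). *Heph* (ENSRNOG00000012294), the ferroxidase bound to membranes, ranged from 8.24 in DPSC replicate 3 to 8.76 in DPSC replicate 1. It differed from NT by -0.03 in sham, 0.09 in MSC, 0.01 in MSCEPO and 0.08 in DPSC, with intervals that lay within -0.33 to 0.39. The ferroxidases thus had unlike values, with a difference from NT in MSC of 2.55 for *Cp* and of 0.09 for *Heph*.

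*Slc11a2* (ENSRNOG00000019550), the transporter DMT1, was the steadiest member, from 10.28 to 10.66 over the libraries and with a pooled SD of 0.11, larger than in 14.9% of tested genes. Its libraries in sham (10.41, 10.66 and 10.58) lay above those in NT (10.28, 10.40 and 10.29). That difference of 0.23 had a 95% interval of 0.01 to 0.45 and a limma adjusted p of 0.363. *Hfe* (ENSRNOG00000016967), a partner of the transferrin receptor whose loss causes hemochromatosis, ranged from 5.42 in NT replicate 3 to 6.53 in DPSC replicate 2. Its largest difference was 0.49 in DPSC (95% interval 0.03 to 0.96, limma adjusted p = 0.263), and every group overlapped with NT.

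**Figure D4:**
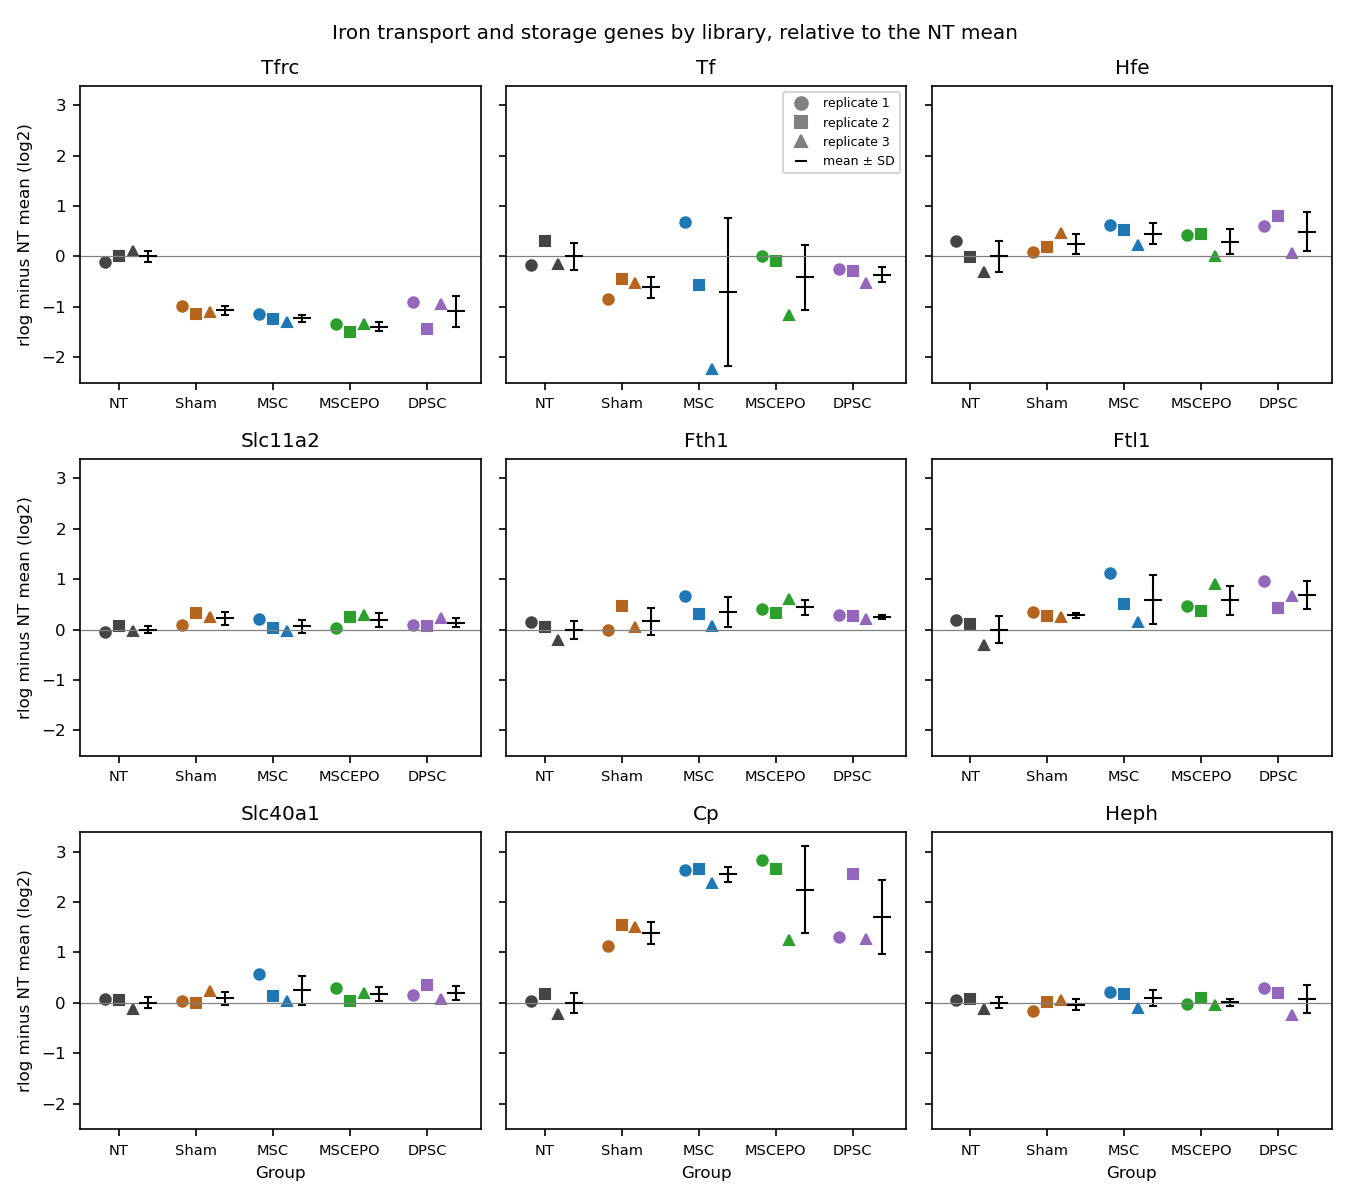
rlog value of each of the 9 members minus its NT mean (log2) in the 15 libraries, by group, with the mean ± SD of 3 libraries; the 9 panels share the vertical axis. The libraries of *Tfrc* and *Cp* separate from NT in every group, *Tf* spreads most within MSC (12.39 to 15.31 before subtraction), and *Slc11a2* least (10.28 to 10.66 over all libraries).

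Around the members, 60 tested genes of 5 lists covered iron sensing, other iron transporters, iron binders, haem turnover and iron-sulfur cluster assembly. Of these, limma called 2 higher and 0 lower in sham against NT, 5 higher and 4 lower in MSC, 5 higher and 5 lower in MSCEPO and 2 higher and 2 lower in DPSC, where it called 0.888%, 17.4%, 11.6% and 2.85% of all tested genes. Against sham it called 0 in each group with cells. The median difference of the 60 from NT was 0.04 in sham and 0.00 in each group with cells.

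*Lcn2* (lipocalin 2), an acute-phase protein that binds iron-carrying siderophores, and *Hmox1*, the enzyme that frees iron from haem, rose in all 4 groups. *Lcn2* had 9.63, 9.60 and 8.95 in NT, 10.66, 10.82 and 10.91 in sham, 12.26, 11.73 and 11.49 in MSC, 11.69, 11.88 and 11.66 in MSCEPO and 10.96, 11.23 and 11.13 in DPSC. No library with NaIO3 overlapped with NT, and all 9 libraries with cells were above sham. The differences from NT were 1.40 in sham, 2.43 in MSC, 2.35 in MSCEPO and 1.71 in DPSC (limma adjusted p = 0.00674, 0.000114, 7.61e-05 and 0.00143). Against sham, *Lcn2* was 0.76 higher in the mean of the groups with cells (95% interval 0.41 to 1.12), with an adjusted p of 0.172. *Lcn2* is also a gene of reactive glia, whose list was above NT in all 4 groups too. In MSCEPO replicate 3 and DPSC replicates 1 and 3 that list lay at 1.36 to 1.64, against 1.48 to 1.65 in sham. *Lcn2* was above sham in those libraries, and the part of glia in its level was not tested.

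*Hmox1* had 6.59, 6.70 and 6.42 in NT, 7.60, 7.67 and 7.43 in sham, 8.82, 8.04 and 8.04 in MSC, 8.38, 8.02 and 8.23 in MSCEPO and 8.15, 8.14 and 7.74 in DPSC. Its order was that of *Lcn2*, with NT lowest and sham below every library with cells. The differences from NT were 1.00 in sham (limma adjusted p = 0.0411), 1.73 in MSC (0.000437), 1.64 in MSCEPO (0.000385) and 1.44 in DPSC (0.0035). The call in sham was lost in 11 of 26 alternatives, up to an adjusted p of 0.20, among them without any NT library (0.0978 to 0.20), any sham library (0.0957 to 0.194), MSCEPO replicate 2 (0.0501) or DPSC replicate 1 (0.0575).

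Of the sensors, *Fbxl5*, the ubiquitin ligase subunit that degrades iron regulatory protein 2, fell by 0.64 in MSC, by 0.68 in MSCEPO and by 0.54 in DPSC (limma adjusted p = 0.00167, 0.00109 and 0.0129). It had 13.13, 13.22 and 13.16 in NT and 12.32 to 12.73 over the 9 libraries with cells, while sham lay between at 12.76 to 12.85 (-0.35, adjusted p = 0.13). The regulatory proteins themselves, *Aco1* and *Ireb2*, were not called, with differences of 0.05 to 0.15 and of -0.32 to -0.11. *Hamp*, the gene of the hormone hepcidin, was below the filter at 1.69 to 2.02. *B2m*, the light chain that HFE and class I molecules need to reach the surface, rose by 2.30 in MSC and 1.77 in MSCEPO (limma adjusted p = 0.00396 and 0.0175). *Smad4*, a transducer of the signal that induces hepcidin, fell by 0.74 in MSCEPO (0.0237), where replicate 3 had 9.70 and the others 10.69 and 10.57. The list of 14 tested T and NK cell genes lay at 0.78 to 2.84 above NT in MSC, 0.35 to 1.09 in MSCEPO, 0.09 to 0.89 in DPSC and 0.06 to 0.10 in sham, and its part in the level of *B2m* was not tested.

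Other carriers and enzymes were called against NT in the groups with cells, and none was called between those groups and sham. *Slc39a8*, the importer ZIP8 for zinc, manganese and iron, rose by 1.16 in MSC and 1.06 in MSCEPO (limma adjusted p = 0.00242 and 0.00413), and *Steap4*, an iron and copper reductase, by 1.94 in MSC (0.0416). *Meltf*, the transferrin-like melanotransferrin, rose by 0.40 in MSCEPO (0.0442). *Pcbp2*, a chaperone that hands iron to ferritin and also binds RNA, fell by 0.63 in MSC, by 0.62 in MSCEPO and by 0.45 in DPSC (0.00115, 0.000978 and 0.0169). *Ncoa4*, which carries ferritin to lysosomes, was not called, with differences of -0.25 to 0.10. *Cpox*, an enzyme of haem synthesis, fell by 0.58 in MSC and by 0.69 in MSCEPO (0.00421 and 0.0018), and *Nfs1*, the sulfur donor of iron-sulfur clusters, fell by 0.50 and by 0.37 (0.00973 and 0.0494). None of the genes called here was called in sham against NT, but their sham means lay on the same side of NT. *Slc39a8* had 6.91 in sham against 6.49 in NT, *Steap4* 6.77 against 6.13 and *Meltf* 4.28 against 4.09. *Pcbp2* had 12.65 against 12.96, *Cpox* 9.52 against 9.94 and *Nfs1* 10.09 against 10.48. Several of the calls in the groups with cells were close to the threshold. The alternatives that lost them numbered 18 of 26 for *Nfs1* and 16 of 26 for *Meltf* in MSCEPO, 11 of 26 for *Steap4* in MSC, 5 of 26 for *Smad4* and 2 of 26 for *B2m* in MSCEPO, and 7 of 25 for *Pcbp2* and 4 of 25 for *Fbxl5* in DPSC. These counts include the alternative that asks for a fold above 2. *Nfs1*, *Meltf*, *Smad4*, *Pcbp2* and *Fbxl5* fail it by their size, whatever their p-value.

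**Figure D5:**
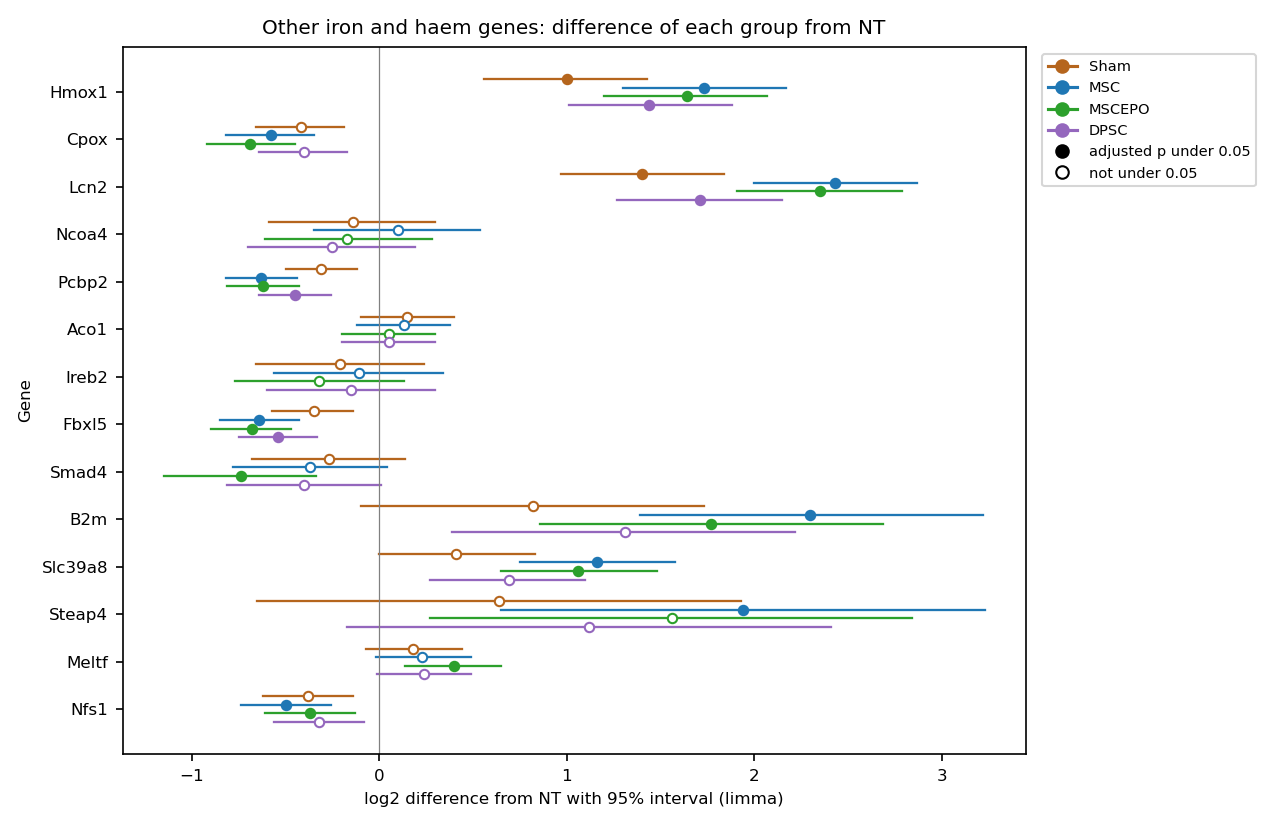
log2 difference of each group from NT, with the 95% interval from limma, for 14 genes around the members; filled points have an adjusted p under 0.05. *Lcn2* (1.40 to 2.43) and *Hmox1* (1.00 to 1.73) are filled in all 4 groups, and *Aco1*, *Ireb2* and *Ncoa4* in none.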

How the data were processed

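RNA was extracted from retinas and mRNA libraries were sequenced as paired-end reads. Per the study's methods and the submitters' processing notes, the authors ran Salmon 1.1.0 with the Rnor_6.0 annotation, used tximport to pass from transcripts to genes, and applied the rlog function of DESeq2. The deposited values are log2 (rlog) values made by the authors. No counts were used: these values do not give the depth of single libraries, and no floor is given. A table of the whole series repeats these values in 15 columns that were not used, with 0 values differing by more than 1e-06.

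R 4.3.3 with limma 3.58.1 fitted group means of all 15 libraries (variance moderated with a trend on the mean) to 15424 genes with a mean rlog of at least 3.32, the log2 of 10. P-values were two-sided and adjusted by the Benjamini-Hochberg method within each of 11 comparisons. The design had allowed for counts, and its count tests were not run. The fit was tested on simulated data. The level of a marker list is the mean rlog over its tested genes, with the NT mean subtracted. With 3 libraries against 3, the smallest p of an exact permutation test is 0.1, and list levels are given as ranges. The members and lists were chosen with earlier results of these data known.

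Genes named are the members, up to 3 called genes per iron list and comparison, *Hmox1*, *Ireb2*, *Aco1*, *Hamp*, *Ncoa4* and *Lcn2*, the 3 genes most like each called member, and defining markers. A marker is not reported here and was left out of its list. Alternatives were the samples fitted, filters, a fold above 2, median centring, quantile normalization, no variance trend, array weights (gene-by-gene estimate), a replicate block, and each library left out in turn. A further alternative, without MSCEPO replicate 3 and DPSC replicate 2, was added after seeing the data.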

Additional observations from a re-analysis of the deposited data

How the results depend on the processing

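The falls of *Tfrc* and the rises of *Cp* in MSC and MSCEPO against NT kept their direction and call in every alternative. The count of members called in sham against NT was 2 in place of 1 in a fit of the groups compared, with array weights and without MSCEPO replicate 3 and DPSC replicate 2, where *Cp* was added. In DPSC against NT it was 1 in place of 2 in a fit of the groups compared, without a filter and after quantile normalization, where *Cp* was lost. Quantile normalization added *Fth1* in MSC (adjusted p = 0.0417) and MSCEPO (0.0149) against NT, for 3 members in place of 2 in each. Array weights added *Ftl1* in DPSC (adjusted p = 0.00329), also for 3 (of 3678 genes called in that fit). Array weights gave 4 members in MSC against NT (of 7618 genes called in that fit), 1 in MSC against sham (of 2796), 2 in MSCEPO against sham (of 1105), 1 between DPSC and MSC (of 1838) and 1 in the mean of the groups with cells against sham (of 1789). Leaving out MSCEPO replicate 3 and DPSC replicate 2 gave 1 against sham in MSC (of 520 genes called), in MSCEPO (of 337) and in the mean (of 191), 1 between DPSC and MSC (of 596) and 2 between DPSC and MSCEPO (of 427). With single libraries left out the counts ran from 1 to 2 in sham, 2 to 3 in MSC, 2 to 2 in MSCEPO and 1 to 2 in DPSC against NT, and were 0 elsewhere. The cause of these moves was not tested.

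Quantile normalization reversed *Slc40a1* in sham (-0.03), MSC (-0.14) and MSCEPO (-0.07) against NT and in the mean of the groups with cells against sham (-0.03), and *Heph* in MSCEPO against NT (0.00). Array weights reversed *Tfrc* in DPSC against sham (0.06) and *Cp* between MSC and MSCEPO (-0.06). Leaving out MSCEPO replicate 3 and DPSC replicate 2 reversed *Tfrc* (0.15) and *Cp* (-0.11) in DPSC against sham and *Cp* between MSC and MSCEPO (-0.20). As single libraries were left out, *Tf* ran from -1.40 to 0.05 in MSC against NT and from -0.11 to 0.37 in the mean against sham, *Heph* from -0.09 to 0.03 in sham, -0.05 to 0.04 in MSCEPO and -0.02 to 0.24 in DPSC against NT, *Tfrc* from -0.11 to 0.15 and *Cp* from -0.11 to 0.54 in DPSC against sham, and *Cp* from -0.20 to 0.60 between MSC and MSCEPO. None of these reversed values was called. *Tf* was called lower in MSC against NT with array weights (-0.73, adjusted p = 0.0412), and *Tfrc* in MSCEPO against sham (-0.40, 0.0352).

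Counts over all genes moved more: from 137 in sham against NT to 27 and 2375 at the extremes, from 2677 to 1033 and 7618 in MSC, from 1795 to 551 and 6066 in MSCEPO and from 439 to 100 and 3678 in DPSC. Against sham they ran from 0 to 2796 in MSC, 0 to 1105 in MSCEPO, 0 to 42 in DPSC and 0 to 1789 in the mean. The median of all genes moved by at most 0.10, in MSC against NT after quantile normalization. The replicate block changed no call of a member, and of the other iron genes it lost *Meltf* in MSCEPO (adjusted p = 0.0581). Libraries with the same replicate number correlated above 0.1 in 12 of 30 pairs (r from -0.441 to 0.653), and 6 of 15 libraries correlated best with their own number. Whether libraries with the same number share more than that number was not tested. These values do not give the depth of single libraries, and the rlog values shrink differences, most at low levels such as those of *Slc40a1* and *Hfe*.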
